A study of Mus musculus with 24 samples.

Results

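The genes described are 10 genes of bile acid synthesis, conjugation, uptake and control, chosen by symbol among the 55797 gene names of the per-sample count files: Cyp7a1, Cyp8b1, Cyp27a1, Cyp7b1, Slc27a5, Baat, Slc10a1, Slco1b2, Nr0b2 and Nr1h4. All 10 passed the filter on low counts that left 19352 genes for testing. They were followed over 12 liver libraries of male mice, 6 labelled db/db and 6 labelled db/+. The db/db mouse is homozygous for a defective leptin receptor, in every tissue and from birth, and overeats and becomes obese and diabetic. The db/+ mouse carries a functional copy and serves as the control. Within each genotype, 2 libraries came from mice given water, 2 from mice given sucrose and 2 from mice given 3M-Brazzein, a form of the sweet-tasting protein brazzein. All groups carry the strain entry C57/BL6 and a treatment entry of 16 weeks, and the age and the doses are not stated in the labels used here. Nothing in the labels says that replicates are separate animals, so p-values measure the spread between these libraries, which may be technical.

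Hepatocytes make bile acids from cholesterol by 2 routes. In the classic route Cyp7a1 takes the first and rate-limiting step and Cyp8b1 adds the hydroxyl group that turns the product into cholic acid. In the alternative route Cyp27a1, a mitochondrial enzyme, hydroxylates the side chain and Cyp7b1 then acts on the resulting oxysterols. Slc27a5 activates bile acids with coenzyme A and Baat joins them to an amino acid, mainly taurine in mice. Slc10a1 and Slco1b2 carry bile acids from portal blood back into the hepatocyte. Nr1h4, the bile acid receptor FXR, induces Nr0b2, the corepressor SHP, which lowers transcription of Cyp7a1 and Cyp8b1.

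RefSeq promoter windows, from 250 bases before to 50 after a start site, were at hand for 6 of the 10 genes. The 250 bases before the start site are shown for the 2 hydroxylases among them and for Nr0b2, because they stand for the classic route, the alternative route and their control. The build is GRCm38.p6, and the stretches are chr9:121916306-121916555 on the minus strand, chr1:74713285-74713534 on the plus strand and chr4:133553126-133553375 on the plus strand, each printed from 5′ to 3′ along its gene. Capitals mark matches to the motifs searched.
Cyp8b1: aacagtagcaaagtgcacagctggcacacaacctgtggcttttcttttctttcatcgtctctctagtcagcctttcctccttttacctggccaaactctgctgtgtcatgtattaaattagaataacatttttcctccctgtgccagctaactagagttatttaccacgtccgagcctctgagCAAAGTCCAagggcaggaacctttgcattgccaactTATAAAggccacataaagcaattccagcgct
Cyp27a1: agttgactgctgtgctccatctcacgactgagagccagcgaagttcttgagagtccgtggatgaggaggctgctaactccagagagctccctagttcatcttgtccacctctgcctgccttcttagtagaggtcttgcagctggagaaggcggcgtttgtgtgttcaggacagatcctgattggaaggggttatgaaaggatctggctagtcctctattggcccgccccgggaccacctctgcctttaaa
Nr0b2: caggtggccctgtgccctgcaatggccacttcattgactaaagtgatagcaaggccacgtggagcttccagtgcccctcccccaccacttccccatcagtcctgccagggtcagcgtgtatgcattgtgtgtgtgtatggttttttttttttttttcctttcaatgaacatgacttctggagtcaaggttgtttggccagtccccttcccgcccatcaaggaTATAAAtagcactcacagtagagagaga

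The Cyp8b1 stretch held the HNF4A motif CAAAGTCCA 67 bases and the TATA box TATAAA 31 bases before the start site. Both strands were searched. Of 32851 RefSeq windows of the same length, 0.475% held CAAAGTCCA and 13.6% held TATAAA. The Nr0b2 stretch held TATAAA 28 bases before the start, and the Cyp27a1 window held none of the motifs. TTGCNNAA, the CEBP motif, was in 10.8% of all windows and in 1 of the 7 windows of these genes, a window of Slc10a1. AAGGTCA, the NR5A2 element, was in 4.72% of all windows and in 0 of the 7. No window of these genes held the inverted or the direct repeat of AGGTCA with 1 base between, or the HNF1 palindrome. A match describes letters in a window and no match says only that those letters are not there.

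The liver libraries held 60384569 to 79385804 estimated counts, with 22169 to 24115 genes above 0. Values below are CPM, counts scaled to the library size after TMM factors, which ran from 0.881 to 0.983 in db/+ and from 0.971 to 1.19 in db/db. Mitochondrial ribosomal RNA took 0.578% to 1.29% of counts in db/+ and 0.263% to 0.336% in db/db, with no overlap. Summed over 7 hepatocyte markers, the level was 68889 to 90294 CPM in db/+ and 72021 to 99252 in db/db, and none of the 7 passed the test. Of 5 erythroid markers 4 were higher in db/db, with sums of 659 to 1214 CPM in db/+ and 1101 to 3708 in db/db. Of the other cell type markers, Cd68 and Cd5l (macrophages, 2 of 6) and Lyve1 (endothelium, 1 of 5) were higher in db/db. Col1a1 (stellate cells, 1 of 5) was higher and Des (stellate cells) was lower. By the same test, 7.91% of all genes were higher and 7.27% lower. In these lists Adgre1 (log2 difference -1.88), Marco (-1.63), Clec4g (-0.73), Stab2 (-0.37) and Reln (-0.35) had negative differences that did not pass. Clec4f, Vsig4, Pecam1, Kdr, Lrat and Dcn had positive differences that did not pass. The summed CPM in db/+ and db/db were 46.2 to 194 and 77.97 to 206 for macrophages, 34.6 to 86.3 and 56.8 to 122 for endothelium, and 142 to 249.5 and 164 to 270 for stellate cells. Of 4 ileum markers, Fgf15 and Fabp6 were listed at 0 in every library. The summed cholangiocyte markers ran from 19.5 to 45.7 CPM in db/+ and from 30.98 to 69.5 in db/db, with none past the test. Lepr ran from 1.90 to 18.9 CPM in db/+ and from 0.690 to 2.504 in db/db. The part of these values in the results below was not tested.

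Averaged over the drinks, 3 of the 10 genes were lower in db/db than in db/+ liver and 0 were higher. Across all genes tested, 7.27% were called lower and 7.91% higher by the same rule, an edgeR quasi-likelihood adjusted p below 0.05. The 3 were Cyp7b1 and Cyp27a1, the enzymes of the alternative route, and Baat, the conjugating enzyme. DESeq2 called 4, adding Cyp8b1, and it called 25.1% of all genes. The median log2 difference of the 10 genes was -0.42, and that of all genes was -0.03. In bulk RNA, fewer cells of a type and less RNA per cell cannot be told apart.

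**Figure D1:**
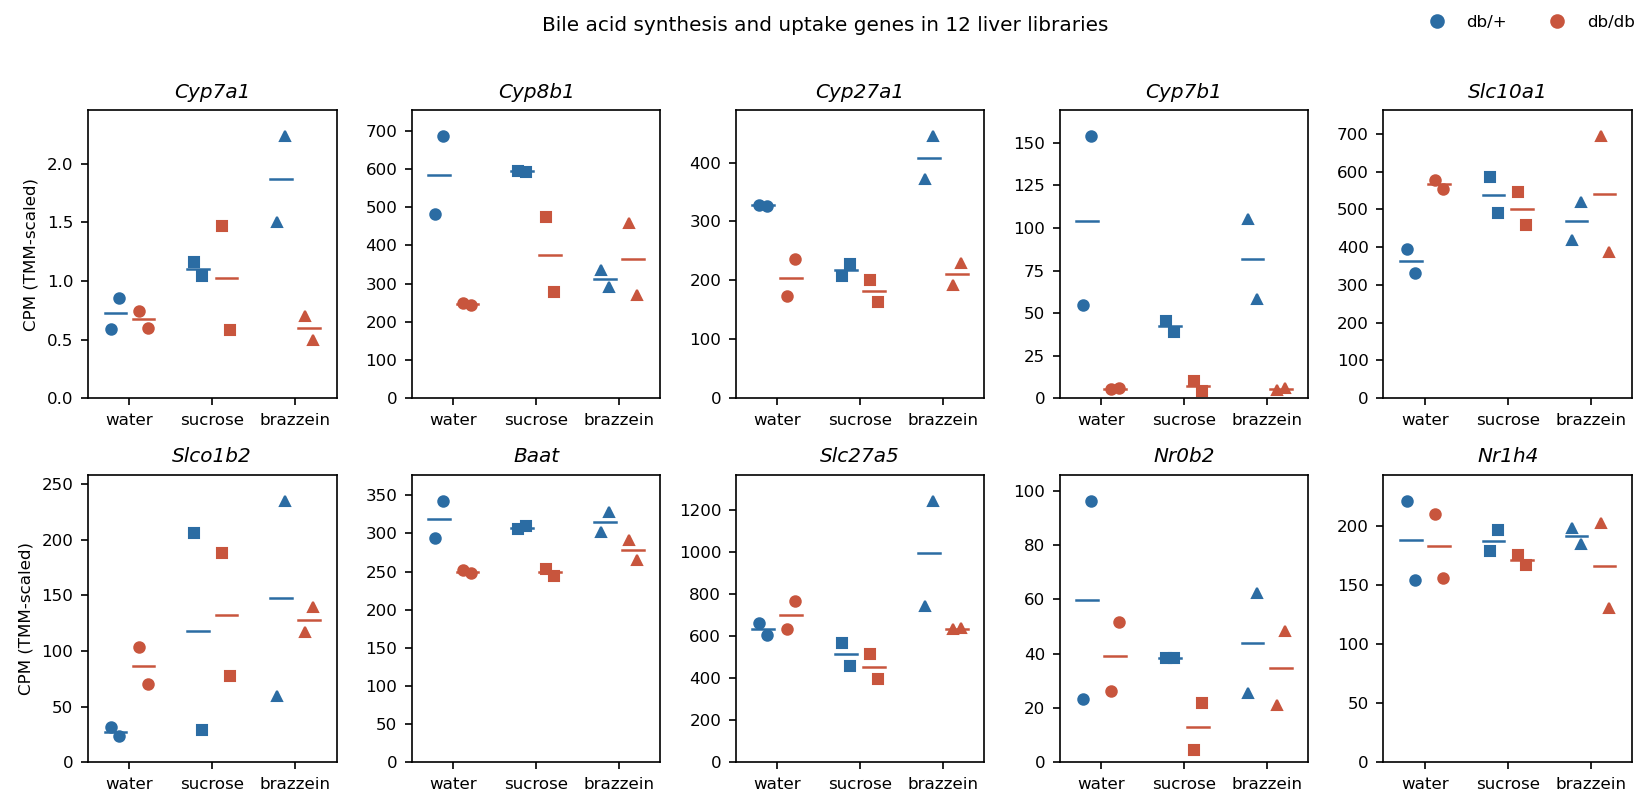
Level of each gene in CPM (linear axis from 0) in the 12 liver libraries, by drink, with db/+ in blue and db/db in red. Each point is 1 library and each short line the mean of 2. For Cyp7b1 the db/db libraries sit between 4.19 and 10.2 and the db/+ libraries between 38.96 and 154.

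Cyp7b1 showed the widest separation of the 10. In db/+ liver it held 54.5 and 154 CPM (water), 45.3 and 38.96 CPM (sucrose) and 105 and 58.5 CPM (brazzein). The db/db values were 5.42 and 5.69 CPM (water), 10.2 and 4.19 CPM (sucrose) and 4.52 and 5.74 CPM (brazzein). Every db/db library lay below every db/+ library, on each drink and over all of them. Here and below, whether the pairs of a single drink lay apart is a description only. The share of all genes with pairs apart on a single drink was not counted. The mean was 76.0 ± 44.7 CPM in db/+ and 5.95 ± 2.16 in db/db (SD, n = 6 each), a ratio of 12.8. On the log2 scale Cyp7b1 fell by 3.59 (SE 0.35, edgeR adjusted p = 0.00126). Of all genes tested, 93 (0.481%) were called lower with a difference at least as large. Cyp7b1 is known to be expressed more in male than in female mouse liver.

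The Cyp7b1 difference passed the test on 2 of the 3 drinks. On water it fell by 4.23 (SE 0.62, edgeR adjusted p = 0.0238), where 1 of the 10 genes was called against 0.543% of all genes called lower. On brazzein it fell by 3.995 (SE 0.62, edgeR adjusted p = 0.0254), again the 1 gene called of 10, against 0.651% of all genes called lower. On sucrose it was -2.55 (SE 0.58, edgeR adjusted p = 0.0856), and 0 of the 10 were called against 0.868% of all genes called in either direction. On sucrose 2 of the 10 had an unadjusted p under 0.05, against 16.3% of all genes. DESeq2 called 3 of the 10 on water, 1 (Cyp7b1) on sucrose and 3 on brazzein, against 11%, 8.22% and 9.85% of all genes. The db/+ mean of Cyp7b1 was lower on sucrose (42.1 ± 4.49 CPM, SD, n = 2) than on water (104 ± 70.2) or brazzein (81.8 ± 33.03). The difference between drinks in the genotype effect on Cyp7b1 did not pass the test, at 1.67 for sucrose against water (95% interval -0.12 to 3.47, edgeR adjusted p = 1). The Cyp7b1 call on water was lost without db/+ water replicate 2 or without either db/db water library. Those fits leave 1 library in a compared group, and far fewer of all genes were called in them. On brazzein the call was lost without db/+ sucrose replicate 1 or 2, db/+ brazzein replicate 1, or db/db water or brazzein replicate 1 or 2. These fits also leave a group of 1, and the number of all genes called fell in some and rose in others.

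Cyp27a1, which opens the alternative route, was lower in db/db liver by a smaller margin. The db/+ libraries held 328 and 326 CPM (water), 207 and 227 CPM (sucrose) and 372 and 444 CPM (brazzein). Its db/db values were 174 and 236 CPM (water), 201 and 164 CPM (sucrose) and 191 and 229 CPM (brazzein). The db/db pair lay below the db/+ pair on each of the 3 drinks, and 4 of 6 db/db libraries lay below the lowest db/+ library, a sucrose library. In the authors' FPKM the sucrose pairs of Cyp27a1 overlapped, at 81.9 and 88.95 in db/+ and 90.1 and 76.3 in db/db. Cyp27a1 fell by 0.63 (SE 0.11, edgeR adjusted p = 0.00907), a ratio of means of 1.59. On brazzein alone it was -0.96 (SE 0.19, edgeR adjusted p = 0.0527) and on sucrose alone -0.25 (SE 0.19, edgeR adjusted p = 0.571). Without any 1 library, the adjusted p of Cyp27a1 over drinks was at most 0.0402 and that of Cyp7b1 at most 0.00861.

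**Figure D2:**
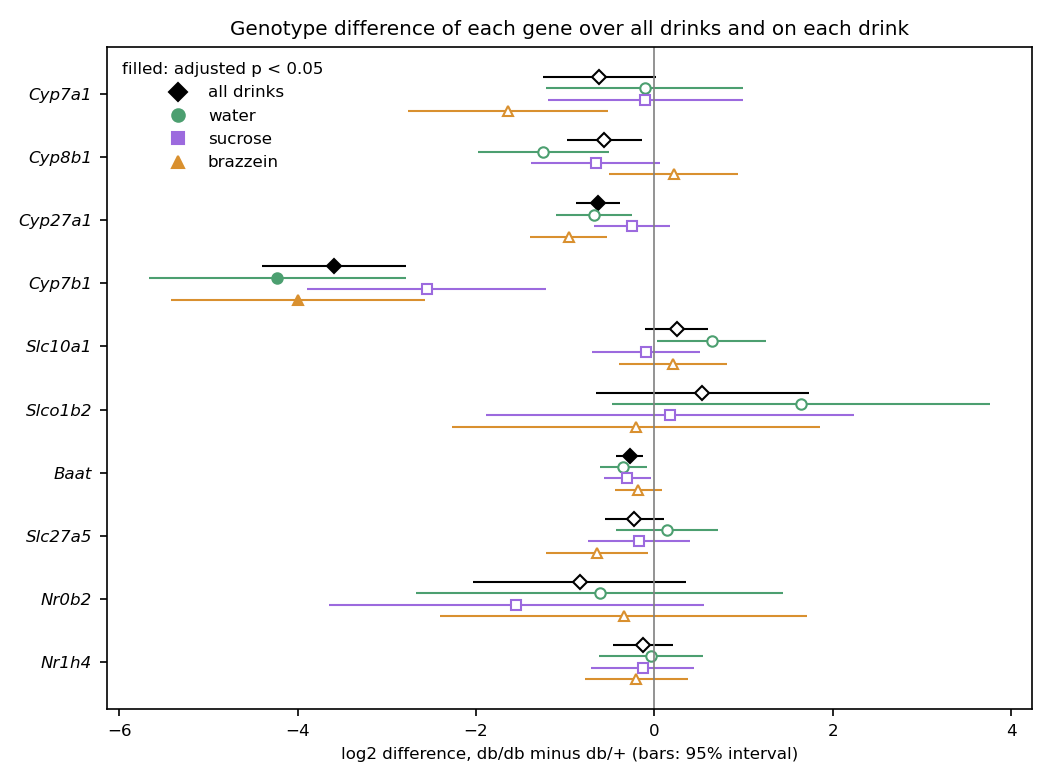
log2 difference of each gene, db/db minus db/+, over all drinks (diamonds) and on water, sucrose and brazzein, with bars for the 95% interval and filled symbols for an edgeR adjusted p below 0.05. The filled symbols belong to Cyp7b1 (over drinks -3.59, water -4.23, brazzein -3.995), Cyp27a1 (-0.63) and Baat (-0.28).

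Cyp8b1, which directs the classic route towards cholic acid, had its db/db pair below its db/+ pair on water and sucrose, and the pairs overlapped on brazzein. Its db/+ values were 483 and 685 CPM (water), 595 and 592 CPM (sucrose) and 336 and 290 CPM (brazzein). The db/db libraries held 249 and 243 (water), 475 and 277 (sucrose) and 457 and 270 (brazzein). The 2 lowest db/+ libraries were the brazzein pair. Over drinks the difference was -0.56 (SE 0.18, 95% interval -0.98 to -0.14, edgeR adjusted p = 0.0746), short of the threshold. DESeq2 gave an adjusted p of 0.0421, and edgeR without db/db brazzein replicate 1 gave 0.0414. On water alone the difference was -1.24 (SE 0.32, edgeR adjusted p = 0.0927), on sucrose alone -0.66 (SE 0.32, edgeR adjusted p = 0.353) and on brazzein alone 0.22 (SE 0.31, edgeR adjusted p = 0.790). The difference between the water and brazzein effects was 1.46 (SE 0.45, unadjusted p = 0.0114, edgeR adjusted p = 0.696), which did not pass.

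Cyp7a1, the gate of the classic route, was low in all livers. Its estimated counts were only 34 to 137 per library. The db/+ values were 0.590 and 0.859 CPM (water), 1.16 and 1.04 CPM (sucrose) and 1.51 and 2.23 CPM (brazzein). The db/db values were 0.742 and 0.603 (water), 1.47 and 0.585 (sucrose) and 0.698 and 0.498 (brazzein). The genotypes overlapped on water and sucrose and were apart on brazzein. Over drinks the difference of Cyp7a1 was -0.62 (SE 0.28, 95% interval -1.25 to 0.02, edgeR adjusted p = 0.169). On brazzein it was -1.64 (SE 0.49, edgeR adjusted p = 0.140), where DESeq2 called it. Cyp7a1 is known to follow feeding and the time of day closely.

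Of the conjugating enzymes, Baat was lower in db/db by a small and steady amount. It held 294 and 343 CPM (water), 306 and 310 CPM (sucrose) and 301 and 328 CPM (brazzein) in db/+ liver. The same order gave 252 and 248, 253 and 245, and 291 and 265 in db/db. All 6 db/db libraries lay below all 6 db/+ libraries, as for Cyp7b1, and 3.51% of all genes tested were separated in that direction. The means were 314 ± 18.3 CPM in db/+ and 259 ± 17.2 in db/db (SD, n = 6 each). Baat fell by 0.28 (SE 0.066, edgeR adjusted p = 0.0277). The call depended on the scaling: with library totals only the difference was -0.11 (edgeR adjusted p = 0.272), and in the authors' FPKM the genotypes overlapped, at 109 ± 7.05 in db/+ and 101 ± 6.10 in db/db (SD, n = 6 each). It also passed without db/+ water replicate 1 or db/+ brazzein replicate 1, whereas without any 1 of the other libraries its edgeR adjusted p was 0.0523 to 0.106.

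Slc27a5, which acts before Baat, overlapped between the genotypes on water and sucrose and was lower in both db/db libraries on brazzein. It held 663 and 603 CPM (water), 568 and 460 CPM (sucrose) and 744 and 1240 CPM (brazzein) in db/+. The db/db values, in the same order, were 632 and 768, 513 and 397, and 633 and 638. In CPM the 4 sucrose libraries were the lowest of the 12, with the highest of them at 568 and the lowest library on another drink at 603. In the authors' FPKM this did not hold. A db/+ water library was at 164, below a sucrose library of db/+ (174) and of db/db (176). Over drinks the genotype difference of Slc27a5 was -0.22 (SE 0.14, edgeR adjusted p = 0.328), and -0.064 without db/+ brazzein replicate 2.

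Neither uptake carrier passed the test for genotype. Slc10a1, the sodium-dependent carrier NTCP, held 395 and 330 CPM (water), 586 and 489 CPM (sucrose) and 419 and 518 CPM (brazzein) in db/+. Its db/db values, in the same order, were 577 and 555, 545 and 460, and 693 and 388. The genotypes were apart on water, db/db higher, and overlapped on the other drinks (over drinks 0.25, SE 0.15, edgeR adjusted p = 0.304). Slco1b2, a sodium-independent carrier, varied most between replicates in db/+: 32.1 and 23.4 CPM (water), 206 and 29.2 CPM (sucrose) and 59.9 and 235 CPM (brazzein). In db/db these were 103 and 70.3, 188 and 77.4, and 117 and 139, higher than db/+ in both water libraries. The higher db/+ sucrose library was 7.07 times the lower one, and the genotype difference of Slco1b2 was 0.54 (SE 0.52, 95% interval -0.66 to 1.73, edgeR adjusted p = 0.525). With 1 library left out this ranged from 0.28 (without db/+ sucrose replicate 2) to 1.22 (without db/+ sucrose replicate 1).

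Neither regulator passed the test for genotype. Nr0b2 held 23.2 and 96.3 CPM (water), 38.6 and 38.4 CPM (sucrose) and 25.5 and 62.4 CPM (brazzein) in db/+. In db/db these were 26.4 and 51.7, 4.51 and 21.8, and 20.99 and 48.2. The pairs differed up to 4.83-fold within a group, and the genotypes were apart on sucrose only, db/db lower (over drinks -0.84, SE 0.52, 95% interval -2.03 to 0.36, edgeR adjusted p = 0.313). With 1 library left out the difference of Nr0b2 ranged from -1.34 (without db/db sucrose replicate 2) to -0.36 (without db/+ water replicate 2). Nr1h4 was the steadier of the regulators, from 154 to 221 CPM with a median of 191 in db/+ and from 131 to 210 with a median of 171 in db/db. Its difference was -0.12 (SE 0.14, 95% interval -0.46 to 0.21, edgeR adjusted p = 0.607), and the sign changed with library totals only (0.04) and on log2 FPKM (0.03).

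Levels were compared between genes only in the authors' FPKM, which divides by gene length. In db/+ liver the median FPKM ran in the order Cyp8b1 (189), Slc27a5 (182), Slc10a1 (176), Cyp27a1 (120), Baat (112), Nr1h4 (64.5), Nr0b2 (24.01), Cyp7b1 (17.8), Slco1b2 (8.66) and Cyp7a1 (0.181). The db/db order was Slc10a1 (239), Slc27a5 (197), Cyp8b1 (112), Baat (103), Cyp27a1 (83.2), Nr1h4 (70.5), Slco1b2 (16.97), Nr0b2 (16.8), Cyp7b1 (1.86) and Cyp7a1 (0.113). In db/+ the ranges of neighbours in the order were apart between Baat and Nr1h4 and between Slco1b2 and Cyp7a1, and overlapped elsewhere. In db/db they were apart between Nr1h4 and Slco1b2 and between Cyp7b1 and Cyp7a1. Cyp7a1 was lowest in both genotypes, and only 34.2% of the genes above 0 had a lower median FPKM.

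The FPKM of Cyp8b1 exceeded that of Cyp7b1 in every library, and the ratio separated the genotypes. It was 9.84 and 4.95 (water), 14.6 and 16.9 (sucrose) and 5.52 and 3.55 (brazzein) in db/+. The db/db ratios were 51.3 and 47.6 (water), 52.0 and 73.8 (sucrose) and 113 and 52.3 (brazzein). The ratio has the Cyp7b1 difference in it and is a description of the same libraries, with no test of its own.

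**Figure D3:**
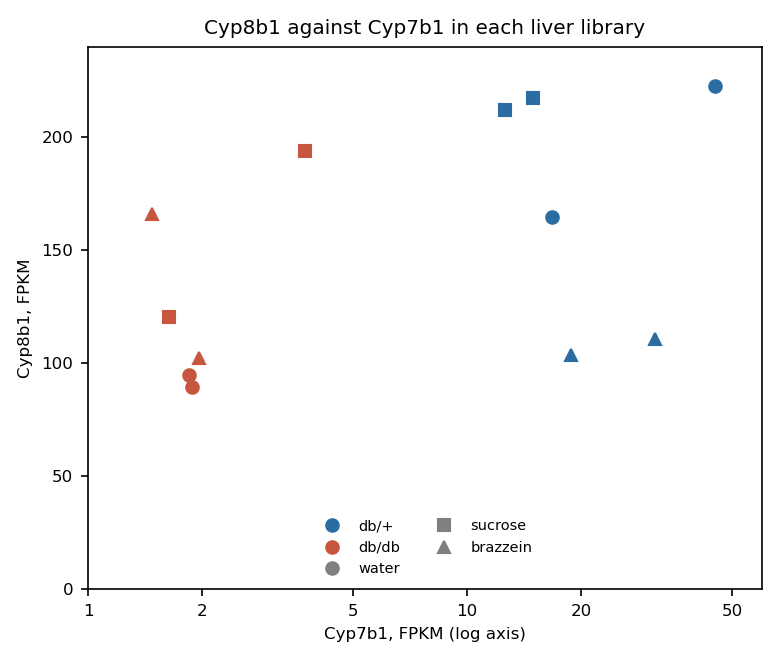
Cyp8b1 (vertical, FPKM) against Cyp7b1 (horizontal, FPKM, log axis) in each of the 12 liver libraries, with db/+ in blue, db/db in red and the drink as the symbol. The genotypes separate along Cyp7b1, at 12.6 to 44.99 in db/+ and 1.47 to 3.73 in db/db, and overlap along Cyp8b1, at 104 to 223 and 89.6 to 194.

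No drink comparison called any of the 10 genes with edgeR. These comparisons share libraries with each other and with the genotype comparisons. Over both genotypes, 0 of 10 were called for sucrose against water (0.0155% of all genes), brazzein against water (0.0723%) and brazzein against sucrose (0.145%). DESeq2 called 0, 0 and 2 of the 10, against 0.94%, 2.72% and 6.41% of all genes, and 2, 0 and 2 had an unadjusted p under 0.05, against 5.88%, 9.43% and 14.7%. In db/db the count was 0 for sucrose against water (0.00517% of all genes), brazzein against water (0.119%) and brazzein against sucrose (0.160%). DESeq2 called 0 in each, against 0.393%, 2.79% and 7.08% of all genes, and 1, 0 and 0 had an unadjusted p under 0.05, against 4.27%, 8.57% and 14.7%. In db/+ the count was 0 for sucrose against water (0.0155% of all genes), brazzein against water (0.00517%) and brazzein against sucrose (0.0207%). DESeq2 called 0, 0 and 1, against 1.13%, 0.863% and 2.17% of all genes, and 2, 4 and 3 had an unadjusted p under 0.05, against 5.98%, 6.06% and 8.75%. The interactions of genotype with drink also called 0 of 10, against 0.0155% of all genes for sucrose against water, 0.0672% for brazzein against water and 0.0672% for brazzein against sucrose. DESeq2 called 0 in each, against 0.543%, 1.43% and 2.51% of all genes, and 0, 1 and 1 had an unadjusted p under 0.05, against 4.97%, 6.22% and 10.3%. So few genes pass these edgeR tests that a count of 0 says little about the 10.

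Cyp27a1 and Slc27a5 had the smallest p-values between drinks. Both were higher on brazzein than on sucrose in the averages over genotypes, by 0.56 (SE 0.13, unadjusted p = 0.00283, edgeR adjusted p = 0.137) for Cyp27a1 and 0.72 (SE 0.18, unadjusted p = 0.00362, edgeR adjusted p = 0.143) for Slc27a5. DESeq2 called both, with adjusted p = 0.0209 and 0.0259. Slc27a5 also passed with edgeR without db/+ brazzein replicate 1, but that fit leaves replicate 2 as the only library of its group. Replicate 2 held 1240 CPM of Slc27a5, with the other db/+ libraries at 460 to 744. That call therefore says little about the drinks. In db/+ alone the 2 brazzein libraries of Cyp27a1 (372 and 444 CPM) lay above the 2 sucrose libraries (207 and 227), a difference of 0.91 (SE 0.19, edgeR adjusted p = 0.255, DESeq2 adjusted p = 0.00951). In db/db the values of Cyp27a1 on the same drinks overlapped (191 and 229 against 201 and 164). The test of that contrast between genotypes gave -0.71 (SE 0.26, 95% interval -1.32 to -0.10, edgeR adjusted p = 0.436).

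Of 15 other enzymes of bile acid synthesis tested, 2 were higher and 2 lower in db/db, against 7.91% and 7.27% of all genes, and the list's median difference was 0.10 against -0.03 for all genes. Akr1d1, which reduces the sterol ring, rose by 1.15 (SE 0.29, edgeR adjusted p = 0.0357), from 53.3 to 255 CPM in db/+ to 197 to 264 in db/db. Slc27a2, which activates bile acid precursors with coenzyme A, fell by 0.88 (SE 0.21, edgeR adjusted p = 0.0273), with all db/db libraries (407 to 1172 CPM) below all db/+ libraries (1491 to 2016). Akr1c6, a hydroxysteroid dehydrogenase, fell by 0.48 (SE 0.11, edgeR adjusted p = 0.0228). With library totals only, 3 of the list were higher and 0 lower. Akr1d1, Slc27a2 and Akr1c6 passed in 3, 3 and 5 of 12 fits that each left out a library, with adjusted p up to 0.0869, 0.0858 and 0.0648.

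The fourth, Cyp2c70, makes the muricholic acids that set mouse bile apart from human bile, and its genotype difference changed sign between drinks. In db/+ it held 38.9 and 49.98 CPM (water), 8.68 and 13.1 CPM (sucrose) and 100.2 and 91.5 CPM (brazzein). The db/db libraries held 63.1 and 75.2 (water), 47.5 and 70.3 (sucrose) and 38.01 and 53.3 (brazzein). The db/+ pairs were apart on every drink, lowest on sucrose and highest on brazzein, while the db/db pairs overlapped between sucrose and both other drinks. Brazzein exceeded sucrose in db/+ by 3.14 (SE 0.31, edgeR adjusted p = 0.0354). On sucrose db/db exceeded db/+ by 2.43 (SE 0.30, edgeR adjusted p = 0.0209), and on brazzein the difference was -1.07 (SE 0.29, edgeR adjusted p = 0.114). The interaction of genotype with brazzein against sucrose was -3.50 (SE 0.41, edgeR adjusted p = 0.0456, DESeq2 adjusted p = 2.04e-10). It kept its sign in all 18 alternatives and passed in 11, and its adjusted p was 0.058 to 0.109 without db/+ water replicate 1 or 2, db/+ sucrose replicate 1, db/db water replicate 1 or 2, db/db sucrose replicate 2 or db/db brazzein replicate 2. Over drinks Cyp2c70 was higher in db/db by 0.67 (SE 0.16, edgeR adjusted p = 0.0320), a call that passed in 3 of 12 fits with a library left out.

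**Figure D4:**
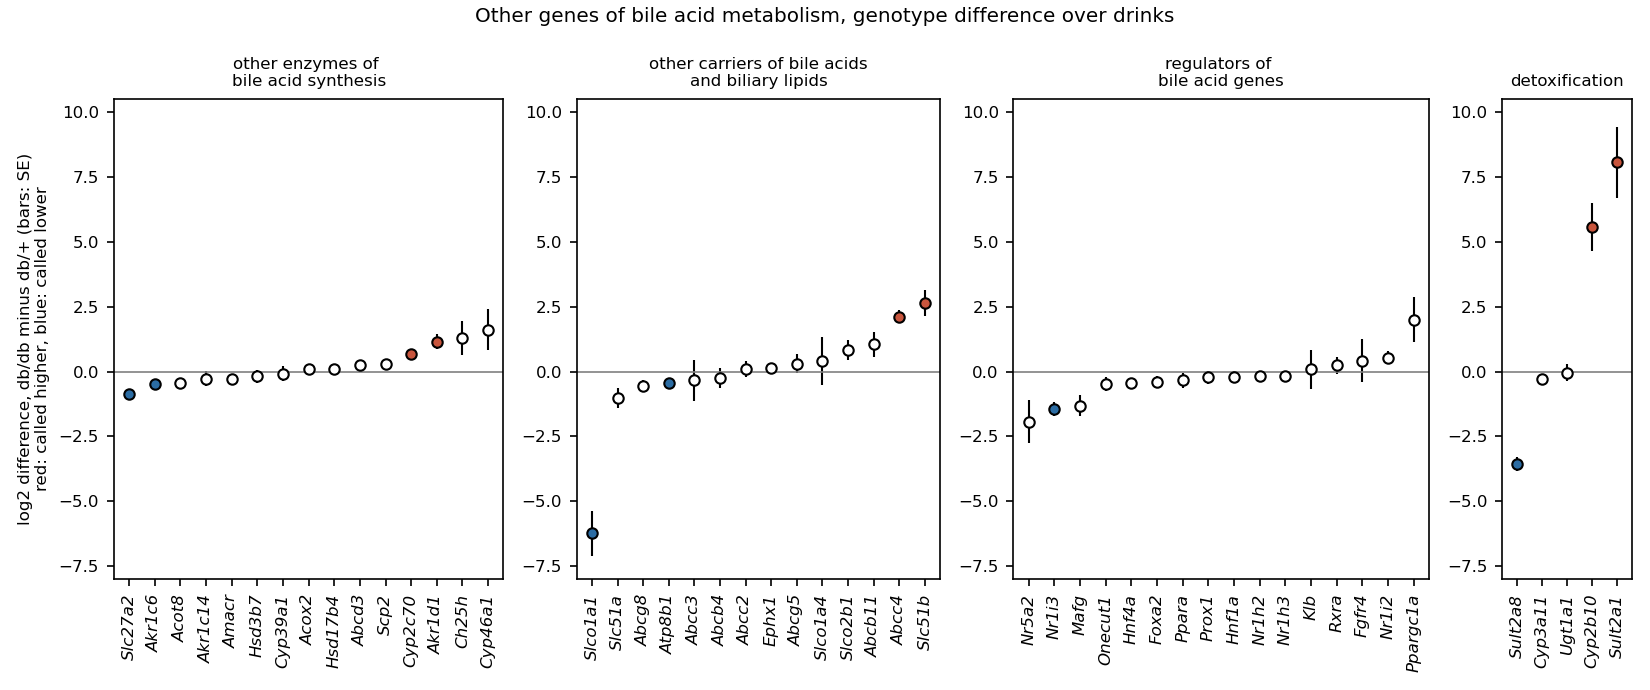
log2 difference, db/db minus db/+ over drinks, of each tested gene in 4 lists (15 other enzymes, 14 other carriers, 16 regulators and 5 detoxification genes), with bars for the SE, red for genes called higher and blue for genes called lower by edgeR. Genes called in both directions appear among enzymes, carriers and detoxification genes, and the 1 called regulator is Nr1i3 (-1.44). The fitted value of Sult2a1 depends on the prior count, because its db/+ libraries were at or near 0.

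Among 14 other carriers of bile acids and biliary lipids, 2 were higher and 2 lower in db/db (all genes 7.91% and 7.27%), with a median of 0.12. Abcc4, which exports bile acids across the basolateral membrane, rose by 2.11 (SE 0.26, edgeR adjusted p = 0.00270), from 0.813 to 4.80 CPM in db/+ to 6.36 to 9.26 in db/db. Slc51b, a subunit of a second basolateral exporter, rose by 2.64 (SE 0.49, edgeR adjusted p = 0.0127), from 0.114 to 0.636 CPM to 0.752 to 3.31. The other subunit, Slc51a, had a negative difference that did not pass (-1.02, SE 0.38, edgeR adjusted p = 0.108). It held 0.391 to 1.24 CPM in db/+ and 0.210 to 1.39 in db/db. Abcc4, Slc51b and Slc51a were all low in absolute terms. Slco1a1, an uptake carrier known to be higher in males, fell by 6.23 (SE 0.88, edgeR adjusted p = 0.00451), from 4.97 to 141 CPM to 0.113 to 1.13. Atp8b1, a lipid flippase of the canalicular membrane, fell by 0.43 (SE 0.11, edgeR adjusted p = 0.0412) and passed in 0 of 12 fits with a library left out, where its adjusted p was 0.058 to 0.134. Abcb11, the canalicular bile salt pump and a known FXR target, ran from 13.2 to 49.6 CPM with a median of 21.8 in db/+ and from 16.0 to 134 with a median of 49.4 in db/db, and did not pass.

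Of 16 regulators tested, 1 was lower and 0 higher (all genes 7.27% and 7.91%), with a median of -0.22. DESeq2 called 3 lower (Nr1i3, Mafg and Nr5a2), where it called 25.1% of all genes. With limma on log2 FPKM, Ppargc1a was called higher and Nr1i3 lower, where 3716 of 19351 genes were called. Nr5a2 had a median of 38.5 CPM in db/+ and 34.3 in db/db. Its lowest values were 0.711 and 0.0439 CPM in the db/db brazzein pair and 1.97 in db/+ brazzein replicate 1. Very low values in some libraries were not confined to Nr5a2. The median count reached 100 for 11348 of the 19352 tested genes. Of these, 1329 fell below 10% of their own median in some library, but 0 of the 10 genes described did. The cause of the low Nr5a2 values was not tested. Ppargc1a had medians of 0.117 CPM in db/+ and 0.305 in db/db, with maxima of 0.605 and 17.1. Nr1i3, the xenobiotic receptor CAR, fell by 1.44 (SE 0.26, edgeR adjusted p = 0.0113), with 121 to 335 CPM in db/db below 393 to 1064 in db/+. Of 5 detoxification genes, 2 were higher and 1 lower. Cyp2b10, a classic CAR target, rose by 5.58 (SE 0.93, edgeR adjusted p = 0.00828), from 0 to 4.86 CPM in db/+ to 4.94 to 53.9 in db/db. Sult2a1, a bile acid sulfotransferase, was higher (edgeR adjusted p = 0.0117), at 0 to 0.108 CPM in db/+ and 0.306 to 11.9 in db/db. Sult2a8, another sulfotransferase, fell by 3.58 (SE 0.27, edgeR adjusted p = 0.000504), with 7.22 to 37.4 CPM in db/db against 181 to 313 in db/+, and it passed on each of the 3 drinks. Sult2a, Slco1a, Cyp2b and Cyp2c are families of close copies, as are Akr1c, Cyp2a, Cyp2d, Cyp4a and Mup. Reads may have been divided wrongly among their members, so the values of genes named from these families are uncertain.

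Lists of sex-biased, zonal and clock genes were counted in the same contrast, in which 7.27% of all genes were lower and 7.91% higher. Of 8 genes known to be higher in male liver, 6 were lower in db/db and 0 higher (median -2.59), including Mup20, which fell by 2.72 (SE 0.27, edgeR adjusted p = 0.00130), Cyp2d9, Cyp4a12a and Elovl3. Of 8 genes known to be higher in female liver, 5 were higher and 0 lower (median 3.30), including Cyp2b13, Sult3a1, A1bg and Cyp2a4. Ddx3y, Eif2s3y, Kdm5d and Uty, which lie on the Y chromosome, were above 0 in all 12 libraries, and Xist was at most 0.816 CPM, which matches the labels of male sex. Of 9 pericentral genes, 3 were lower in db/db (Cyp1a2, Oat and Slc1a2) and of 9 periportal genes 3 were higher (Aldh1b1, Hsd17b13 and Cyp2f2), with the other 6 of each list not called and medians of -0.68 and -0.05. With each library left out in turn, Cyp1a2 and Hsd17b13 passed in 12 of 12 fits, Aldh1b1 in 9, Oat in 6, Elovl3 in 5, and Slc1a2 and Cyp2f2 in 2. Of 16 clock genes tested, 0 passed with edgeR and 3 with DESeq2 (Bhlhe40, Cry1 and Hlf, all higher), where DESeq2 called 25.1% of all genes. The part of these lists in the differences of Cyp7b1, Cyp27a1, Baat and Cyp7a1 was not tested.

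The genes whose log2 CPM followed each hydroxylase most closely over the 12 libraries are given as a description, and they share libraries and depth. For Cyp7b1 these were Dleu2 (Pearson r 0.987), C8b (0.986) and Ang (0.983). C8b ran from 124 to 261 CPM in db/+ and 19.03 to 39.5 in db/db, and its likeness to Cyp7b1 was 0.885 within db/+ and 0.794 within db/db. For Cyp27a1 they were Os9 (0.947), Prodh2 (0.917) and Eif3j2 (0.915), and the likeness of Os9 was 0.980 within db/+ and 0.456 within db/db. For Cyp8b1 they were Fam89a (0.891), Mgme1 (0.885) and Bmp10 (0.858). For Cyp7a1 they were Haus5 (0.858), Tigd5 (0.858) and Cdhr5 (0.852).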

How the data were processed

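RNA was sequenced from poly(A)-enriched liver RNA, per the labels' protocols. Per the submitters' processing notes, bcl2fastq was used and the genome build was GRCm39. Which aligner, counter and annotation were used is not given in the sources used here. The library kit named does not mark strand. Each deposited count file gives every gene an estimated count as a whole number, unscaled. The authors' table for the series adds a coverage signal and an FPKM value per gene and sample. Coverage was used only to check that FPKM is proportional to it, and FPKM only for levels and 1 alternative. The 2 coverage columns of the db/+ brazzein livers were not used. Genotype was taken from the titles, because the separate genotype entry differs from the title in 6 of 12 liver samples. The count files of the db/+ brazzein livers carry each other's replicate number in their headers, an exchange within 1 group.

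Counts of the 12 liver libraries were fitted with edgeR 4.0.16 under R 4.3.3 (quasi-likelihood test, TMM factors, filterByExpr, 6 groups of 2), with Benjamini-Hochberg adjustment over all 19352 genes tested and a threshold of 0.05. Genotype was averaged over drinks or taken on each drink, and drinks were compared over and within genotypes and in interactions, 16 comparisons in all. Each group holds 2 libraries, which limits the precision. Counts are estimates, so no counting interval was computed. The alternatives were each library left out, a replicate block, no filter, RLE factors and DESeq2 1.42.0. After seeing the data, 2 were added: no TMM factors, and limma 3.58.1 on log2(FPKM + 1). The steps were tested on simulated data.

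The genes and lists were chosen with earlier results of these data known. All 10 genes are named, up to 5 list members per direction past the threshold for genotype, by smallest p, and the 3 genes most correlated with each hydroxylase (mean of at least 1 CPM). Of the other genes, Cyp2c70 on single drinks, Abcb11, Slc51a, the Y-linked genes and Xist were named after their values were seen. So were Mafg, Nr5a2, Ppargc1a, the cell type markers and the clock genes. Promoter windows are from RefSeq (GRCm38.p6) and were matched by symbol. For the genes described, but not for the share of all windows, any window on 1 of the chromosomes was left out. The values of 1 list member are not reported here.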

Additional observations from a re-analysis of the deposited data

Results flagged for a closer look

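Among the 6 libraries of a genotype, a library was marked where its gap to its neighbour was large against the whole range. The rule was Dixon's test at the 95% level, which marks about 1 in 20 sets by chance if the libraries are alike. It marked 3 of 20. Each set of 6 spans 3 drinks and the 20 sets share libraries, so that rate does not apply directly. Cyp7a1 was 1.47 CPM in db/db sucrose replicate 1, with the other db/db libraries at 0.498 to 0.742. Cyp7b1 was 10.2 CPM in the same library, with the others at 4.19 to 5.74. Slc27a5 was 1240 CPM in db/+ brazzein replicate 2, with the other db/+ libraries at 460 to 744. In addition, Cyp2c70 differed between genotypes in its response to brazzein against sucrose, with an interaction of -3.50 on the log2 scale (edgeR adjusted p = 0.0456).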

How the results depend on the processing

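Over drinks, Cyp7b1 and Cyp27a1 passed in all 18 alternatives, with log2 differences of -3.85 to -2.87 and -0.69 to -0.47. The number of genes called over drinks was 2 to 3 with each library left out. Baat was lost with no filter on low counts (adjusted p = 0.0903), with no TMM factors (0.272) and with limma on FPKM (0.288). The sign of Nr1h4 changed with no TMM factors (0.036) and with limma on FPKM (0.032), the 2 reversed values, and these settings moved the median of all genes by 0.164 and 0.0685 on the log2 scale. With DESeq2 the number called was 3 on water, 1 on sucrose, 3 on brazzein, 2 for brazzein against sucrose over genotypes and 1 for that contrast in db/+, against 11%, 8.22%, 9.85%, 6.41% and 2.17% of all genes. With limma on FPKM it was 1 on sucrose, where 680 of 19351 genes were called. With a library left out, which leaves a group of 1, calls changed on water, on brazzein and for brazzein against sucrose over genotypes. Over drinks, on water and on brazzein, the number called among all genes changed with the library too. The same-numbered libraries of 15 pairs of groups deviated with correlations of -0.105 to 0.0921, so the numbers do not pair the samples. A replicate block gave 3 called over drinks, 0 on water and 0 on brazzein, where it called 2523, 147 and 194 of 19352 genes. The main fit called 2937, 293 and 305 of them. The block changed no other call count among the 10 genes. In the lists it ended the calls of Akr1d1 and Atp8b1. The cause of these changes was not tested. Of 12 counts of called genes between drinks or in interactions, 10 stayed at 0 in every alternative run. Cyp7a1 had the lowest counts of the 10 genes, 34 to 137 per library.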

Other observations

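In the 12 brain libraries of the same series, Cyp7b1 ran from 10.6 to 13.8 CPM with a median of 12.7 in db/+ and from 11.5 to 13.4 with a median of 12.1 in db/db, so the genotypes overlapped there. Cyp27a1 in brain ran from 2.20 to 4.76 CPM in db/+ and from 1.77 to 5.03 in db/db. Cyp7a1 was listed at 0 in all 12 brain libraries. Each of the other 7 genes was under 1 CPM in every brain library, with 0.895 CPM of Nr0b2 as the highest value.

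Slc10a2, the ileal bile acid carrier that cholangiocytes also express, was higher in db/db liver by 1.46 on the log2 scale (edgeR adjusted p = 0.00515), at 1.25 to 7.86 CPM in db/+ and 6.14 to 10.8 in db/db. Of the cholangiocyte markers 0 passed the test, and Fgf15 and Fabp6 were listed at 0 in every liver library. Which cells the Slc10a2 difference comes from was not tested.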
